A study of Mus musculus with 2 samples.

Results

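Nuclear genes for subunits of the mitochondrial respiratory chain were followed across the cell classes of mouse liver tumors. The genes were chosen by name alone: symbols of complexes I to V beginning with Ndufa, Ndufb, Ndufc, Ndufs, Ndufv, Uqcr, Cox4 to Cox8 or Atp5, the genes Sdha to Sdhd, and Cox17, without names ending in -ps or Rik. Of the 94 symbols that fit, 91 had at least 50 unique molecular identifiers (UMIs, each standing for 1 captured transcript) over both libraries, out of 32285 feature IDs measured. They comprised 36 genes of complex I, 4 of complex II, 8 of complex III, 17 of complex IV, 17 of complex V and 9 assembly factors. Cox8b (2 UMIs), Cox7b2 (0 UMIs) and Cox8c (0 UMIs) fell outside, and the members closest to the limit were Ndufa4l2 with 75 UMIs, Cox4i2 with 82 and Cox7a1 with 141. The limit used the UMIs of both groups together and not their difference.

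The respiratory chain sits in the inner mitochondrial membrane. Complexes I and II take electrons from NADH and succinate, complex III hands them to cytochrome c, complex IV passes them to oxygen, and complex V uses the resulting proton gradient to make ATP. Most subunits are encoded in the nucleus, and a small set of core subunits, the mt- genes, is encoded in mitochondrial DNA. Hepatocytes are rich in mitochondria, while erythroid cells lose theirs as they mature.

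The design set tumors lacking Fabp5 in hepatocytes against wild-type tumors. The hKO library came from C57BL/6J mice with a hepatocyte knockout of Fabp5, a fatty acid binding protein, through Alb-CRE-ER, a tamoxifen-inducible recombinase under the albumin promoter that acts in hepatocytes. The WT library came from wild-type littermates. Both groups received tamoxifen at 6 to 8 weeks of age, 5 injections of 100 mg/kg at intervals of 3 days after 16 h of fasting, and 2 weeks later started 15 months on the diet labelled CD-HFD. Each library was a pool of 2 to 3 liver tumors (hepatocellular carcinoma), dissociated with collagenase and profiled with 10x Genomics 3′ chemistry. With 1 library per group there is no replicate, no test was possible, and each interval given here is a 95% interval that covers counting error only.

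The hKO library held 18657 barcodes with 68010317 UMIs and the WT library 14289 barcodes with 58772330 UMIs, of which 10402 hKO and 9459 WT cells were kept. The median depth was 3642 UMIs per cell in hKO and 3822 in WT. The libraries differed in quality measures: 36.8% of hKO and 18.5% of WT barcodes exceeded 25% mitochondrial UMIs, and the median share in the cells kept was 10.0% in hKO and 6.95% in WT. The cells formed 31 clusters, of which 10 came over 90% from 1 library, and the comparison used 11 marker-named classes, each holding 100 or more cells of both hKO and WT. A class name ends in -like because markers alone gave it, and every compared class had UMIs in both libraries for all of its own markers. The hKO and WT libraries shared 73 barcodes, and 29 of these were kept in both. In hepatocyte-like cells Fabp5 stood at 13.8 CPM (UMIs of the gene per 1000000 UMIs of the class) in hKO (interval 10.3 to 18.2). It had 101 CPM in WT (80.2 to 126), a log2 ratio of -2.87. Fabp5 was also lower in hKO in neutrophil-like (-1.48, -2.36 to -0.68) and monocyte-like cells (-0.62, -1.16 to -0.08). It was higher in T-like (0.87, 0.22 to 1.56), endothelial-like (0.48, 0.03 to 0.90) and macrophage-like cells (0.32, 0.03 to 0.60).

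Summed over all members, respiratory chain transcripts made up 1.57% of the UMIs of hKO cells and 1.04% of those of WT cells. The excess was present in 10 of the 11 classes. In hepatocyte-like cells it was absent on this scale, and the sign there depended on how the class was drawn. In T-like cells the members summed to 15818 CPM in hKO and 10305 CPM in WT, a log2 ratio of 0.62 (0.60 to 0.63). The ratio was 0.67 in neutrophil-like cells, 0.51 in monocyte-like and in conventional dendritic-like cells, 0.49 in B-like cells, 0.46 in plasmacytoid dendritic-like cells and 0.43 in NK or innate lymphoid-like cells. It was smaller in macrophage-like cells (0.39), endothelial-like cells (0.30) and erythroid-like cells (0.23, interval 0.16 to 0.31). In erythroid-like cells the hepatocyte RNA estimated from abundant hepatocyte genes amounted to 101% of the member UMIs in hKO and 29.6% in WT, an estimate as large as the whole member signal of that class in hKO. Hepatocyte-like cells, the class in which Fabp5 was targeted, had 30279 CPM in hKO and 32441 CPM in WT, a log2 ratio of -0.10 (-0.12 to -0.08). That ratio was 0.30 with only the cluster that held at least 20 cells in each library. It was 0.66 with finer clustering (Leiden resolution 2.0), -0.29 with a mitochondrial limit of 50% and -0.35 as the mean over cells. The median log2 ratio over all genes lay between -0.18 and -0.04 in 10 classes and at -1.03 in erythroid-like cells, where hemoglobin took 69.8% of hKO and 66.0% of WT UMIs.

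Several classes drew their hKO and WT cells mostly from different clusters. T-like cells came mostly from cluster 4 in hKO (1218 hKO and 85 WT cells) and from cluster 8 in WT (62 hKO and 1154 WT cells). B-like cells came mostly from cluster 5 in hKO (1212 hKO and 39 WT cells) and cluster 2 in WT (68 hKO and 1300 WT cells). Macrophage-like cells had cluster 10 mostly from hKO (793 hKO and 28 WT cells) and cluster 9 mostly from WT (73 hKO and 766 WT cells). The summed ratio was therefore also taken within single clusters, after the data were seen. Of the clusters in those 11 classes, 23 held 20 or more cells from hKO and from WT alike, and the ratio lay above 0 in each, at 0.22 to 0.67. In the T-like clusters 4, 8, 19 and 21 it was 0.40, 0.43, 0.51 and 0.54, each below the 0.62 of the whole class. The B-like clusters 5 and 2 had 0.40 and 0.43, and the macrophage-like clusters 6, 9, 10 and 14 had 0.24, 0.38, 0.59 and 0.47.

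**Figure D1:**
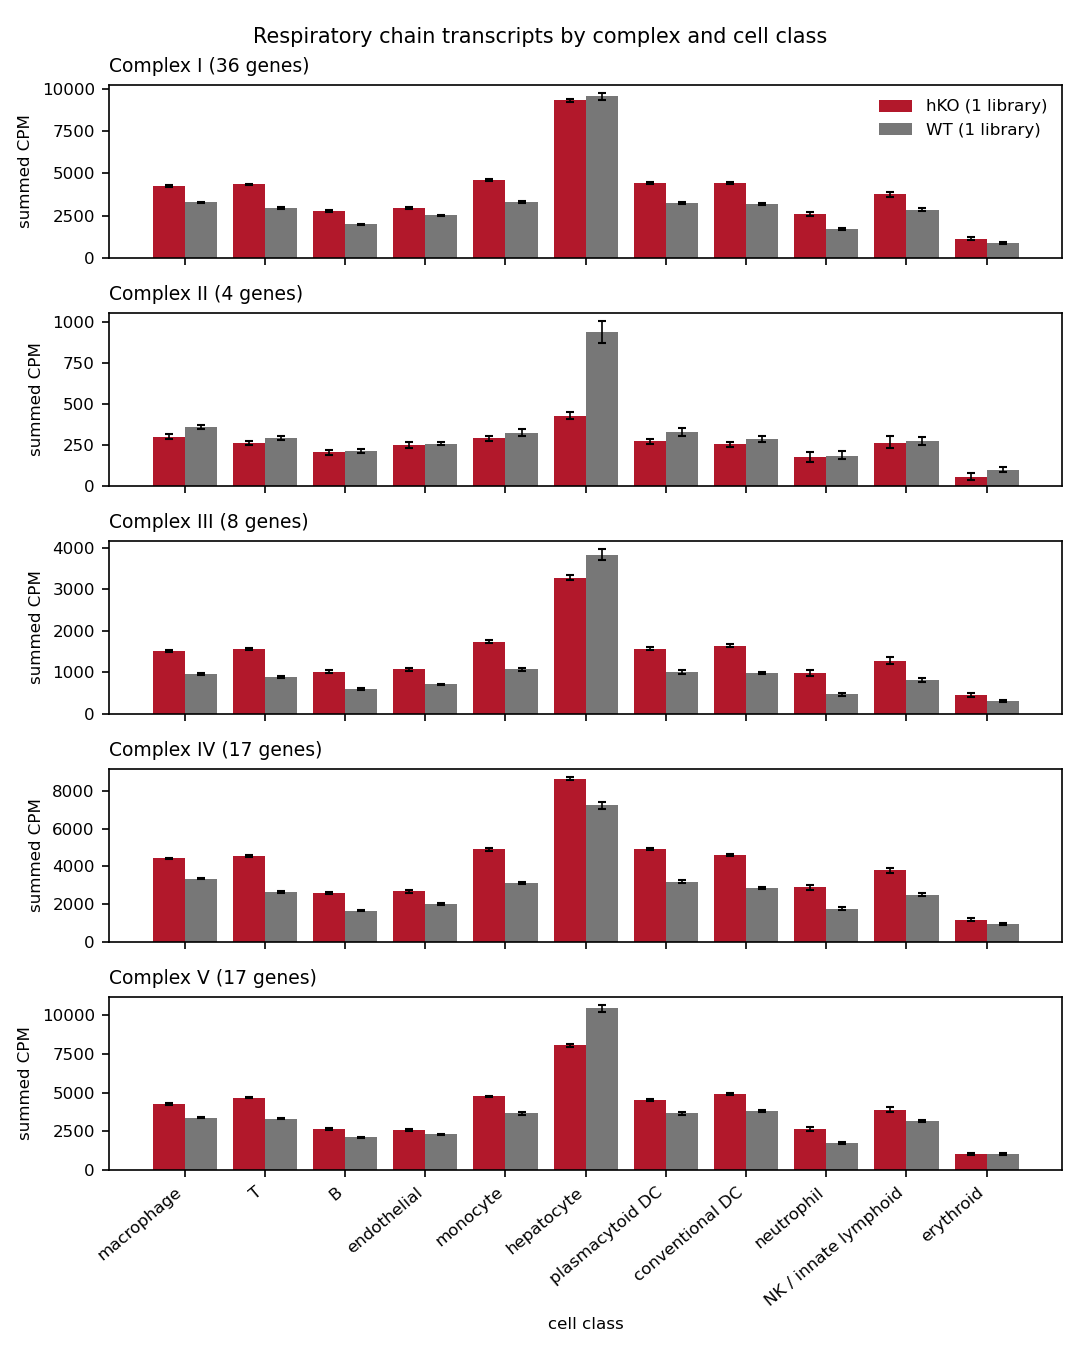
Summed level of each complex (CPM, bars from 0) in 11 marker-named cell classes, hKO left of WT, with exact Poisson 95% intervals; each bar is 1 library. Complexes I, III and IV stand higher in hKO in the 10 classes other than hepatocyte-like, while complex II in hKO is lower than or within counting error of WT in every class.

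The complexes did not move alike. Complex III was higher in hKO in 10 classes, with log2 ratios of 0.52 to 1.04 outside hepatocyte-like cells. Complex IV was higher in all 11 classes (0.26 to 0.79), and complex I in 10 (0.23 to 0.60). Complex V, the ATP synthase, was higher in 9 classes, lower in hepatocyte-like cells (-0.37) and within counting error in erythroid-like cells. Complex II went the other way: its sum was lower in hKO in 7 classes, including T-like cells (260.4 CPM in hKO, 293 CPM in WT) and macrophage-like cells (302 CPM in hKO, 362 CPM in WT), and in no class higher. Some of these directions depend on the scale: complex II was lower in 3 classes when the median gene was set to 0, and on a scale set by genes of like transcript length complex II was lower in 2 classes and higher in 1, complex III higher in 5 and lower in 2, and complex V higher in 2 and lower in 5. In hepatocyte-like cells complex II reached 428 CPM in hKO and 937 CPM in WT, a log2 ratio of -1.13 (-1.26 to -1.0).

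A member was called higher or lower in a class when its ratio was at least 1.5-fold with an interval excluding 0, among genes with at least 50 UMIs there over both libraries. Of the 894 pairs of member and class that could be judged, 378 (42.3%) were called higher in hKO, against 8.63% of all pairs of gene and class, and 62 (6.94%) lower, against 12.2%. Hepatocyte-like cells gave 32 of the lower calls, and in the other classes together 45.0% of member pairs were called higher (all genes 7.38%) and 3.71% lower (all genes 10.5%). From a 2-fold ratio on, 231 pairs were higher, or 25.8% against 5.31% of all pairs of gene and class, and 26 were lower, or 2.91% against 5.12%. In T-like cells 41 of 86 members were called higher, against 8.51% of all genes, and 0 lower, against 10.1% of all genes. Macrophage-like cells had 38 of 87 higher (all genes 7.17%) and 1 lower (all genes 8.79%), and B-like cells 41 of 86 higher (all genes 6.81%) and 3 lower (all genes 10.1%).

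The other immune classes and endothelial-like cells were similar in kind. Monocyte-like cells had 41 of 86 members higher (all genes 6.32%) and 2 lower (all genes 7.40%). Plasmacytoid dendritic-like cells had 41 of 87 higher (all genes 6.36%) and 3 lower (all genes 7.85%), and conventional dendritic-like cells 40 of 88 higher (all genes 5.84%) and 3 lower (all genes 8.38%). In each of these classes the share of members called higher was several times that of all genes. Neutrophil-like cells had 38 of 70 higher (all genes 14.9%) and 1 lower (all genes 11.1%). NK or innate lymphoid-like cells had 34 of 82 higher (all genes 6.01%) and 5 lower (all genes 9.94%). Endothelial-like cells had 31 of 86 higher (all genes 7.68%) and 4 lower (all genes 11.5%). Erythroid-like cells, with 50 members at the UMI minimum and the limit on hepatocyte RNA given above, had 19 higher (all genes 8.94%) and 8 lower (all genes 59.1%).

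Hepatocyte-like cells stood apart. There 14 of 86 members were called higher, a share of 16.3% against 23.6% of all genes, and 32 were called lower, a share of 37.2% against 32.2% of all genes. Both shares are near the background of that class. Here too the libraries filled different clusters: the hKO cells came mostly from cluster 11 (813 cells) and cluster 22 (287 cells), and the WT cells mostly from cluster 20 (326 cells). Unlike T-like and B-like cells, clusters 11 and 20 held at most 2 cells of the smaller library.

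**Figure D2:**
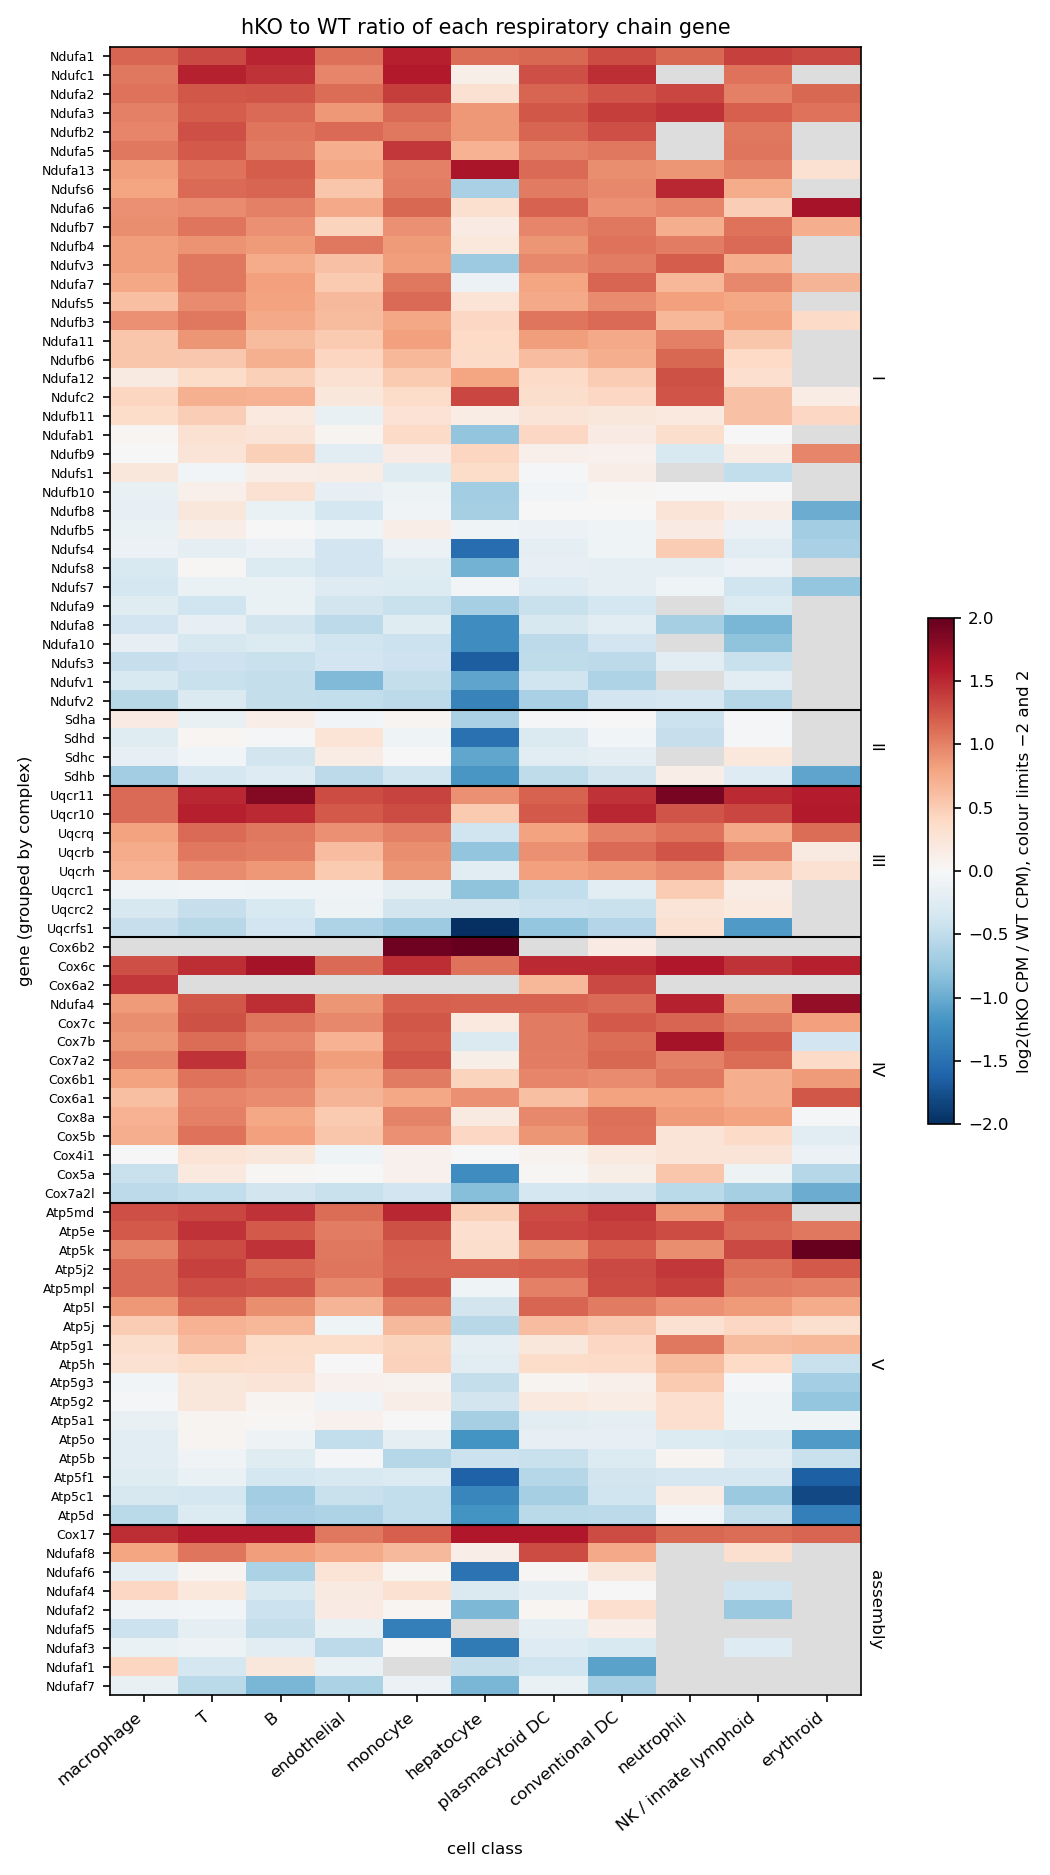
log2 ratio of hKO over WT CPM for 87 of the 88 members with at least 50 UMIs in at least 1 class, by class (columns) and complex (row blocks, sorted by median); colours are limited at -2 and 2, and grey marks pairs under the minimum. Within complexes I, III and V a red block, mostly of small subunits, sits above a pale or blue block. The lower block holds the core and catalytic subunits and, in complexes I and V, also accessory and stalk subunits such as Ndufa8 and Atp5f1. The hepatocyte column is bluer than the others.

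Across classes, 8 members were called higher in hKO in all 11 classes: Atp5j2, Cox17, Cox6a1, Cox6c, Ndufa1, Ndufa3, Ndufa4 and Uqcr11. There were 38 members called higher in 6 or more classes and 0 called lower in 6 or more. In every class where they could be judged, 32 members had a ratio above 0 and 12 had one below 0. The same counts over classes were not made for all genes, and the classes share the same libraries. These counts alone therefore do not set the members apart from other genes. The members with mixed calls were Ndufv3, Ndufs6 and Uqcrb, each called higher in most immune classes and lower in hepatocyte-like cells. The 9 members called in no class were Atp5b, Atp5g3, Cox4i1, Ndufaf4, Ndufb11, Ndufb5, Ndufs1, Ndufs7 and Uqcrc2. Cox4i2, Cox7a1 and Ndufa4l2 reached the UMI minimum in no class.

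Complex I, the NADH dehydrogenase, differed between its core and its accessory subunits, which also differ in transcript length. Shortest principal transcripts ran from 758 to 2590 nucleotides in core genes and from 315 to 2020 in accessory genes. The parts of place and length in this difference were not tested. The 7 nuclear core subunits of complex I, Ndufv1, Ndufv2 and Ndufs3 among them, carry or surround the flavin and the iron-sulfur clusters. Over 69 pairs of core subunit and class, 0 were called higher and 8 lower, 5 of the 8 in hepatocyte-like cells. In the other classes 3 of 62 pairs (4.84%) were lower, below the 10.5% of all genes, and their median log2 ratio lay between -0.78 and -0.13 there. The 29 accessory subunits, which surround and stabilise the core, gave 155 calls higher and 13 lower over 299 pairs. Outside hepatocyte-like cells 54.8% of the accessory pairs were higher (all genes 7.38%) and 1.48% lower, with medians of 0.52 to 0.91.

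Ndufa1, a small accessory subunit of the membrane arm, stood at 131 CPM in hKO and 44.5 CPM in WT monocyte-like cells, a log2 ratio of 1.55. In T-like cells Ndufa1 had 113 CPM in hKO and 45.4 CPM in WT (1.32). Ndufa1 was also higher in hepatocyte-like cells, at 236 CPM in hKO and 109 CPM in WT (1.11). Ndufa3 and Ndufa13, also accessory subunits, behaved alike in T-like cells, at 152 and 283 CPM in hKO against 65.7 and 132 CPM in WT. Ndufa13, known also as GRIM-19, had its largest ratio in hepatocyte-like cells, 626 CPM in hKO and 203 CPM in WT (1.63). Ndufc2 followed there with 311 CPM in hKO and 123 CPM in WT (1.34).

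The pattern in immune cells did not always carry over to hepatocyte-like cells. Ndufc1, a small membrane-arm subunit with the shortest transcript of the members, had 110.4 CPM in hKO and 38.0 CPM in WT T-like cells (1.54), while in hepatocyte-like cells the values were 273 CPM in hKO and 253 CPM in WT (0.11). Ndufv3, an accessory subunit of the NADH-binding module, was called higher in 9 classes, with 131 CPM in hKO and 62.8 CPM in WT T-like cells (1.06), and was called lower in hepatocyte-like cells with a log2 ratio of -0.72 (561 UMIs in hKO and 195 UMIs in WT, out of a larger class total in hKO). Ndufs6, which binds zinc in the peripheral arm, showed the same change of sign: 105 CPM in hKO and 47.4 CPM in WT T-like cells (1.14), and 195 CPM in hKO and 306 CPM in WT hepatocyte-like cells (-0.65). In erythroid-like cells the accessory subunit Ndufa6 stood among the members with the highest ratios (1.65), from 49 UMIs in hKO and 39 UMIs in WT. The limit on hepatocyte RNA in that class, given above, applies here.

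The core subunits and some accessory ones did not share the excess, and their lower calls outside hepatocyte-like cells were few. Ndufs3, a core subunit of the peripheral arm, had 62.5 CPM in hKO and 82.8 CPM in WT T-like cells (-0.41), under the fold needed for a call. In hepatocyte-like cells Ndufs3 was called lower, with 128 CPM in hKO and 400.1 CPM in WT (-1.65), as was Ndufs4, an accessory subunit of the same arm, with 67.7 CPM in hKO and 194 CPM in WT (-1.52). Ndufv1, which binds NADH and flavin, was called lower in endothelial-like, conventional dendritic-like and hepatocyte-like cells. Its values were 17.1 CPM in hKO and 31.5 CPM in WT endothelial-like cells (-0.88). Ndufv2, its iron-sulfur partner, was called lower in plasmacytoid dendritic-like cells at 78.2 CPM in hKO and 123 CPM in WT (-0.65), and Ndufa8, an accessory subunit, in neutrophil-like cells at 40.3 CPM in hKO and 64.3 CPM in WT (-0.67). Ndufab1, the mitochondrial acyl carrier protein, was not called in T-like cells (104 CPM in hKO, 84.4 CPM in WT, 0.30) and was called lower in hepatocyte-like cells (318 CPM in hKO, 549 CPM in WT, -0.79).

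Complex II, succinate dehydrogenase, is the only complex here with no mitochondrially encoded subunit and also an enzyme of the citric acid cycle. Sdha, its flavoprotein, differed little in T-like cells, with 93.7 CPM in hKO and 104 CPM in WT (-0.15). Sdhb (ENSMUSG00000009863), the iron-sulfur subunit, was called lower in 3 classes. In macrophage-like cells Sdhb had 86.3 CPM in hKO and 139 CPM in WT (-0.69, -0.84 to -0.54), in hepatocyte-like cells 159 CPM in hKO and 355 CPM in WT (-1.16), and in erythroid-like cells 18.4 CPM in hKO and 38.2 CPM in WT (-1.06). Among all genes 8.79% were called lower in macrophage-like, 32.2% in hepatocyte-like and 59.1% in erythroid-like cells. The median log2 ratio over all genes of erythroid-like cells was -1.03, near that of Sdhb there. The ratio of Sdhb lay below 0 in 10 of 11 classes, neutrophil-like cells being the exception. All 4 subunits were called lower in hepatocyte-like cells, where Sdhd, a membrane anchor, had the lowest ratio, with 85.3 CPM in hKO and 239.8 CPM in WT (-1.49).

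The Sdhb promoter is shown as that of a member whose ratio was below 0 in most classes. It spans chr4:140961021-140961270 (GRCm38.p6, plus strand), the 250 bases before the transcription start in the RefSeq promoter table, and the capitals mark a core of the nuclear respiratory factor 1 (NRF1) motif on the reverse strand, beginning 54 bases before the start.
Sdhb: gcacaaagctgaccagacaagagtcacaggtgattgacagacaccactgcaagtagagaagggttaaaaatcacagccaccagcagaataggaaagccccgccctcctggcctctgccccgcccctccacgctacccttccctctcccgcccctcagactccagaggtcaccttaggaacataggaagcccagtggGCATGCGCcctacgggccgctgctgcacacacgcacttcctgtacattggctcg

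Complex III, the cytochrome bc1 complex, showed a wide gap between subunits. Its small subunits Uqcr10, Uqcr11, Uqcrb, Uqcrh and Uqcrq gave 47 calls higher and 1 lower over 55 pairs. The core proteins Uqcrc1 and Uqcrc2 and the Rieske iron-sulfur protein Uqcrfs1, which carries electrons to cytochrome c1, gave 0 calls higher and 6 lower over 30 pairs. Outside hepatocyte-like cells 92.0% of the small subunit pairs were higher (all genes 7.38%), and 4 of 27 pairs of the core and Rieske proteins (14.8%) were lower (all genes 10.5%). Shortest principal transcripts ran from 405 to 547 nucleotides in the small subunit genes and from 1363 to 1896 in the core and Rieske genes. The parts of place and length in this gap were not tested. Uqcr11 (ENSMUSG00000020163), the smallest subunit, had 147 CPM in hKO and 52.1 CPM in WT T-like cells, a log2 ratio of 1.5 (1.32 to 1.68). Uqcr11 reached 128 CPM in hKO and 34.4 CPM in WT neutrophil-like cells (1.90), and 95.7 CPM in hKO and 26.7 CPM in WT B-like cells (1.84). In hepatocyte-like cells Uqcr11 was still higher, at 664 CPM in hKO and 353 CPM in WT (0.91, 0.73 to 1.10). Of the other small subunits none was called higher there. Uqcrb, which helps to form the ubiquinone site, had 224 CPM in hKO and 108 CPM in WT T-like cells (1.05), but 306 CPM in hKO and 528 CPM in WT hepatocyte-like cells (-0.79). Uqcrh, the hinge protein next to cytochrome c1, had 588 CPM in hKO and 306 CPM in WT T-like cells (0.94), and 607 CPM in hKO and 701 CPM in WT hepatocyte-like cells (-0.21). Uqcrfs1 was called lower in 5 classes. In hepatocyte-like cells Uqcrfs1 had 108 CPM in hKO and 503 CPM in WT (-2.23, -2.43 to -2.02), the lowest ratio of any member called there. In T-like cells Uqcrfs1 had 66.9 CPM in hKO and 98.3 CPM in WT (-0.56).

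The Uqcr11 promoter is shown as that of a member called higher in every class. It spans chr10:80406822-80407071 (GRCm38.p6, minus strand), 250 bases before the start, and the capitals mark a match to the ETS core bound by the GABP family of factors, beginning 66 bases before the start.
Uqcr11: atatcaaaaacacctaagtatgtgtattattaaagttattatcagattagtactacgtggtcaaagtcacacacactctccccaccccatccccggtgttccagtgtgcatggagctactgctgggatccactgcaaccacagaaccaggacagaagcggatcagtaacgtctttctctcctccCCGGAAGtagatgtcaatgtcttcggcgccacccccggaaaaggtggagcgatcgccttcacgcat

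Complex IV, cytochrome c oxidase, holds the only complex sum that was higher in hKO in all 11 classes. Cox6c, a nuclear subunit with a single transmembrane helix, had 438 CPM in hKO and 157 CPM in WT T-like cells (1.48), 391 CPM in hKO and 161 CPM in WT macrophage-like cells (1.29), and 1186 CPM in hKO and 562 CPM in WT hepatocyte-like cells (1.08). Cox7a2, the general form of subunit 7A, had 309 CPM in hKO and 113 CPM in WT T-like cells (1.45), yet in hepatocyte-like cells the values were 457 CPM in hKO and 423 CPM in WT. Cox7c and Cox8a, small subunits of the membrane part, had 453 and 588 CPM in hKO T-like cells, against 188 and 291 CPM in WT T-like cells. Cox7b was called higher in neutrophil-like cells at 145 CPM in hKO and 46.2 CPM in WT (1.66), and was not called in hepatocyte-like cells, at 398 CPM in hKO and 487 CPM in WT (-0.29). Cox5b, a zinc-binding subunit on the matrix side, had 316 CPM in hKO and 149 CPM in WT T-like cells (1.09). Ndufa4, first assigned to complex I and now to complex IV, had 1614 CPM in hKO and 712 CPM in WT hepatocyte-like cells (1.18). Cox4i1, the general form of subunit 4 and the member with the most UMIs, moved little: 728 CPM in hKO and 604 CPM in WT T-like cells, and 1464 CPM in hKO and 1466 CPM in WT hepatocyte-like cells. Cox5a, the partner of subunit 4, was called lower in hepatocyte-like cells at 383 CPM in hKO and 907 CPM in WT (-1.24). Cox7a2l, also known as SCAF1, is involved in joining complexes III and IV into supercomplexes. Its ratio lay below 0 in all 11 classes, between -0.99 and -0.35. It was called lower in hepatocyte-like (all genes 32.2%), erythroid-like (all genes 59.1%) and NK or innate lymphoid-like cells (all genes 9.94%).

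Subunit 6A has a general form, Cox6a1, and a form known from heart and skeletal muscle, Cox6a2. The Cox6a1 (ENSMUSG00000041697) promoter is shown because that gene was called higher in every class and holds 3 motif matches. It spans chr5:115348959-115349208 (GRCm38.p6, minus strand), 250 bases before the start, and the capitals mark NRF1 cores on both strands, overlapping each other and beginning 162 and 160 bases before the start, and an ETS core on the reverse strand beginning 16 bases before it.
Cox6a1: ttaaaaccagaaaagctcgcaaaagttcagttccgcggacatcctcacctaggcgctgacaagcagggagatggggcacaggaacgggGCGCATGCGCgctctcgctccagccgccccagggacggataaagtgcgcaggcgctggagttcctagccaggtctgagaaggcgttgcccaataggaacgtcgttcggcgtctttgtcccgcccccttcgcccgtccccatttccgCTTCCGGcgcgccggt

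Cox6a1 had UMIs in every class and was called higher in hKO in each, with the limit on erythroid-like cells given above. It had 177 CPM in hKO and 90.6 CPM in WT T-like cells (0.97), 153 CPM in hKO and 101 CPM in WT plasmacytoid dendritic-like cells (0.60), 432 CPM in hKO and 228 CPM in WT hepatocyte-like cells (0.92), and 91.9 CPM in hKO and 39.0 CPM in WT erythroid-like cells (1.24). Cox6a2 (ENSMUSG00000030785) was concentrated in plasmacytoid dendritic-like cells, at 602 CPM in hKO (581 to 623) and 378 CPM in WT (352 to 406), a log2 ratio of 0.67 (0.56 to 0.78). That class held 3248 of the 3402 Cox6a2 UMIs of the hKO cells (95.5%) and 775 of the 848 of the WT cells (91.4%). The next class was conventional dendritic-like, with Cox6a2 at 10.5 CPM in hKO and 4.22 CPM in WT, and macrophage-like cells had 5.49 CPM in hKO and 2.06 CPM in WT. T-like cells, with more UMIs in total, had 15 Cox6a2 UMIs in hKO and 8 in WT. Erythroid-like cells had 0 Cox6a2 UMIs in both libraries.

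**Figure D3:**
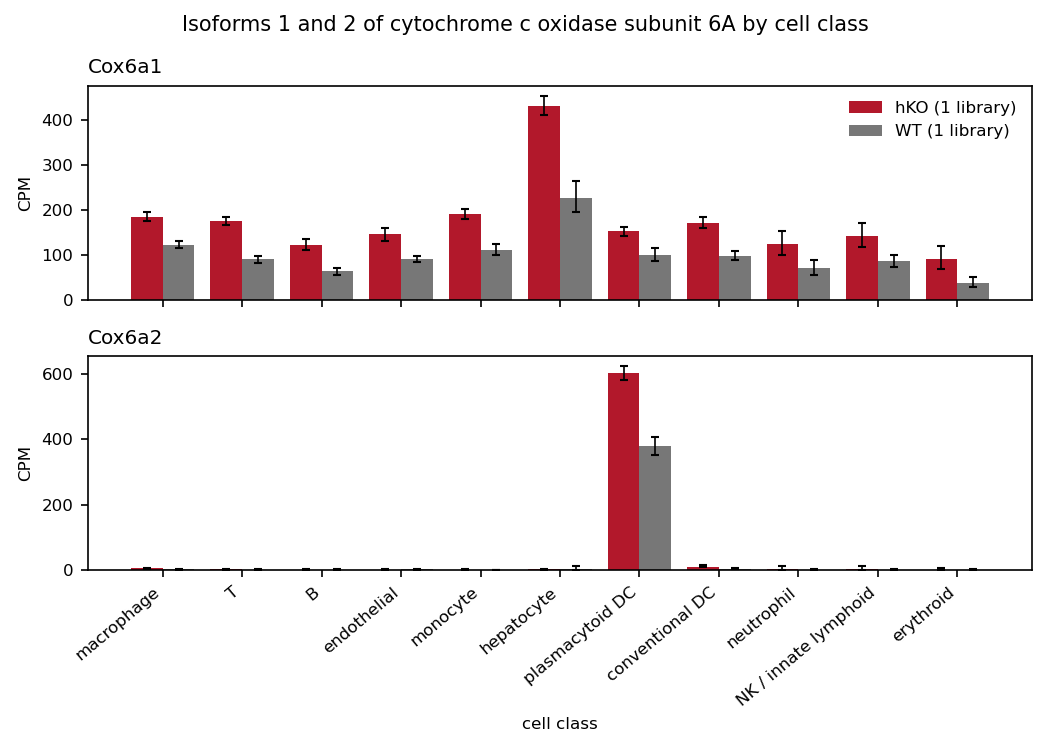
Level of Cox6a1 and Cox6a2 (CPM, bars from 0) in 11 cell classes, hKO left of WT, with exact Poisson 95% intervals; each bar is 1 library. Cox6a1 appears in all classes and stands higher in hKO, while Cox6a2 is near 0 outside plasmacytoid dendritic-like cells, where it reaches 602 CPM in hKO and 378 CPM in WT.

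The other tissue-restricted forms were rare. Cox6b2, a form known from testis, had 61 UMIs in hKO and 1 UMI in WT hepatocyte-like cells (16.5 CPM in hKO, 1.28 CPM in WT), a log2 ratio of 3.69 whose interval ran from 1.16 to 9.01. Cox6b2 was also called higher in monocyte-like cells, at 10.9 CPM in hKO and 2.82 CPM in WT (1.94). In WT 63.2% of the Cox6b2 UMIs lay in cluster 24, which stayed unnamed because it held both cholangiocyte and hepatocyte markers. At a Leiden resolution of 2.0, which moved 118 WT cells of that cluster into the hepatocyte-like class, the hepatocyte-like ratio of Cox6b2 was -1.45. Cox4i2, the form of subunit 4 known from lung, had 46 UMIs in hKO and 14 in WT cells, and Cox7a1, a muscle form, 70 in hKO and 36 in WT. Ndufa4l2, a gene known to be induced by hypoxia, had 26 UMIs in hKO and 29 in WT cells.

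Complex V, the ATP synthase, joins a catalytic F1 head to a membrane part through stalks. The head subunits alpha, beta, gamma and delta (Atp5a1, Atp5b, Atp5c1 and Atp5d) gave 0 calls higher and 10 lower over 44 pairs; outside hepatocyte-like cells 7 of 40 (17.5%) were lower, against 10.5% of all genes. The small epsilon subunit Atp5e gave 10 calls higher over 11 pairs, and the 5 small membrane subunits Atp5j2, Atp5k, Atp5l, Atp5md and Atp5mpl gave 50 higher and 0 lower over 54 pairs. The stalk subunits Atp5f1, Atp5h, Atp5j and Atp5o had 5 calls higher and 4 lower over 44 pairs, and the c-ring genes Atp5g1, Atp5g2 and Atp5g3 had 3 higher and 1 lower over 33. Outside hepatocyte-like cells 5 of 40 stalk pairs and 3 of 30 c-ring pairs were higher (all genes 7.38%). There 2 stalk pairs and 1 c-ring pair were lower (all genes 10.5%). Of these lower pairs, both of the stalk and the 1 of the c-ring came from erythroid-like cells, as did 2 of the 7 of the head. In erythroid-like cells 59.1% of all genes were called lower.

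Atp5e had 536 CPM in hKO and 196 CPM in WT T-like cells (1.45), and Atp5j2, subunit f, 311 CPM in hKO and 121 CPM in WT (1.36). Atp5l, subunit g, had 422 CPM in hKO and 188 CPM in WT T-like cells (1.17), yet 396 CPM in hKO and 508 CPM in WT hepatocyte-like cells (-0.36). Atp5b, the catalytic beta subunit, had 217 CPM in hKO against 228 CPM in WT among T-like cells (-0.07), and 179 CPM in hKO against 265 CPM in WT among monocyte-like cells (-0.57). Atp5c1, the rotor shaft, was called lower in B-like cells at 103 CPM in hKO and 166 CPM in WT (-0.69). Subunits of the same enzyme thus differed in opposite directions within the same cells. Transcript length differed as well, at 931 to 2471 nucleotides for head subunits alpha to delta and 352 to 955 for the small membrane subunits. The parts of place and length in these directions were not tested. In hepatocyte-like cells Atp5c1 had 262 CPM in hKO and 646 CPM in WT (-1.30), Atp5d 486 CPM in hKO and 1116 CPM in WT (-1.20), and Atp5f1, the peripheral stalk subunit b, 202 CPM in hKO and 618 CPM in WT (-1.61). Atp5j2 was called higher there, with 868 CPM in hKO and 389 CPM in WT (1.16). Atp5k had the highest ratio of the members called in erythroid-like cells, with 62.5 CPM in hKO and 15.4 CPM in WT (2.02), and Atp5c1 the lowest, with 18.4 CPM in hKO and 64.0 CPM in WT (-1.80). In that class the estimated hepatocyte RNA amounted to 101% of the member UMIs in hKO, so these values may not be those of erythroid cells.

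Among the 9 assembly factors, Cox17, the copper chaperone of complex IV, was called higher in every class. It had 231 CPM in hKO and 77.8 CPM in WT T-like cells (1.57), 165 CPM in hKO and 59.4 CPM in WT macrophage-like cells (1.47), and 353 CPM in hKO and 117 CPM in WT hepatocyte-like cells (1.60). Ndufaf8, an assembly factor of complex I, was called higher in 7 classes, with 45.5 CPM in hKO and 21.6 CPM in WT T-like cells (1.07). The other complex I factors did not share this. Ndufaf7 was called lower in 4 classes, with 8.65 CPM in hKO and 16.3 CPM in WT B-like cells (-0.92), Ndufaf1 in conventional dendritic-like cells (6.01 CPM in hKO, 12.7 CPM in WT), and Ndufaf5 in monocyte-like cells (4.99 CPM in hKO, 12.9 CPM in WT). Without Cox17, the summed ratio of all other members in the 10 classes outside hepatocyte-like cells was 0.22 to 0.66.

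The ratios of the members followed the length of their transcripts. The shortest principal transcript of each gene in the GENCODE M21 annotation was used, and the 88 members above the minimum in some class ranged from 315 nucleotides (Ndufc1) to 3632 nucleotides (Ndufaf4). Some members also have a far longer principal transcript, such as Cox17 (444 and 3690 nucleotides) and Ndufb2 (455 and 4371). No value by the longest transcript is given here. Spearman's rho between length and log2 ratio across members lay between -0.76 and -0.56 over the 11 classes, and with coding length between -0.86 and -0.65. These are descriptions across 50 to 88 genes that share the same libraries, and the classes share them too. Across the other protein-coding genes rho with transcript length lay between -0.30 (erythroid-like cells) and 0.23 (hepatocyte-like cells), and was -0.02 in T-like cells. Of the 11 members under 450 nucleotides 10 were called higher in 6 or more classes, and their median log2 ratio was 1.29. Members of 450 to under 550 nucleotides had a median of 0.93, those of 550 to under 700 one of 0.80, those of 700 to under 1000 one of 0.12, those of 1000 to under 1500 one of -0.23, and those of 1500 or more one of -0.19.

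**Figure D4:**
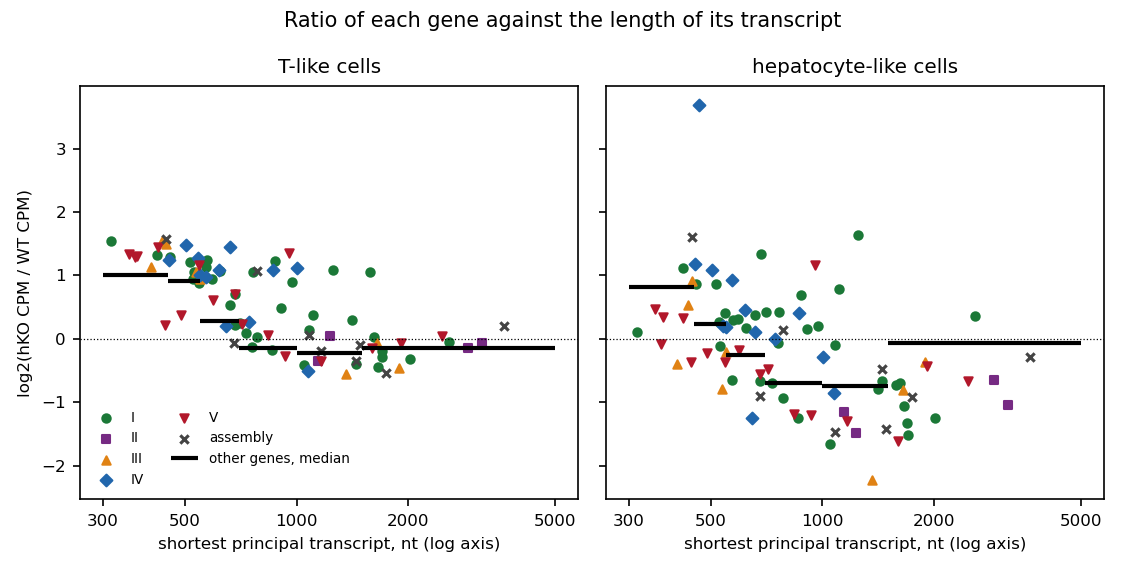
log2 ratio of hKO over WT CPM against the shortest principal transcript (log axis) for each member in T-like and hepatocyte-like cells, with symbols by complex; black lines are medians of the other protein-coding genes in the same length range. In T-like cells members and other genes both fall from about 1 at the shortest lengths to near 0, and in hepatocyte-like cells most members of 1000 nucleotides or more lie below 0.

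Other short genes had medians above 0 as well, by amounts that varied between classes. In T-like cells the 48 other protein-coding genes under 450 nucleotides had a median log2 ratio of 1.01, against 1.33 for the members, and 66.7% of them were called higher. The other genes of 450 to under 550 nucleotides had a median of 0.91 (members 1.12), those of 550 to under 700 one of 0.28 (members 0.95), and those of 700 to under 1000 one of -0.14 (members 0.26). In hepatocyte-like cells the order was turned under 450 nucleotides, with a median of 0.81 for 40 other genes and 0.35 for the members. At 450 to under 550, 550 to under 700 and 700 to under 1000 nucleotides the members there had 0.27, 0.17 and 0.07. Other genes had 0.24, -0.26 and -0.70. At 1000 to under 1500 and at 1500 or more the members had -0.85 and -0.76, and other genes -0.74 and -0.06. In erythroid-like cells the 19 other genes under 450 nucleotides had a median of 0.11 and the members 1.16. At 1500 nucleotides or more in T-like cells the medians were -0.15 for 8525 other genes and -0.10 for the members. By coding length the members stood further from other genes: in T-like cells the 11 members with under 225 coding nucleotides had a median of 1.32, against 0.49 for 72 other genes, and the 11 members of 225 to under 300 a median of 1.24, against 0.24 for 146.

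Each ratio was then centred on the median of the other protein-coding genes of like length in the class, a step chosen after the relation to length was seen. Centred on transcript length, complex I lay above 0 in all 11 classes (0.25 to 0.96), hepatocyte-like cells included, where it was 0.25 against -0.04 on the CPM scale. Complex IV lay above 0 in all 11 as well (0.29 to 0.82). Complex III fell to between -0.08 and 0.20 in 9 classes, with -0.67 in hepatocyte-like and 0.60 in erythroid-like cells. Complex V lay between -0.16 and 0.03 in those 9 classes, and complex II between -0.11 and 0.16. Centred on coding length, complexes I, III, IV and V all lay above 0 in the 10 classes other than hepatocyte-like, at 0.34 to 1.00, 0.48 to 0.81, 0.39 to 0.67 and 0.24 to 0.63. In erythroid-like cells complex V stood at 0.63 on that scale, against -0.04 on the CPM scale. So for complexes III and V the answer depends on which length is matched, and the part of length in these ratios was not otherwise tested.

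**Figure D5:**
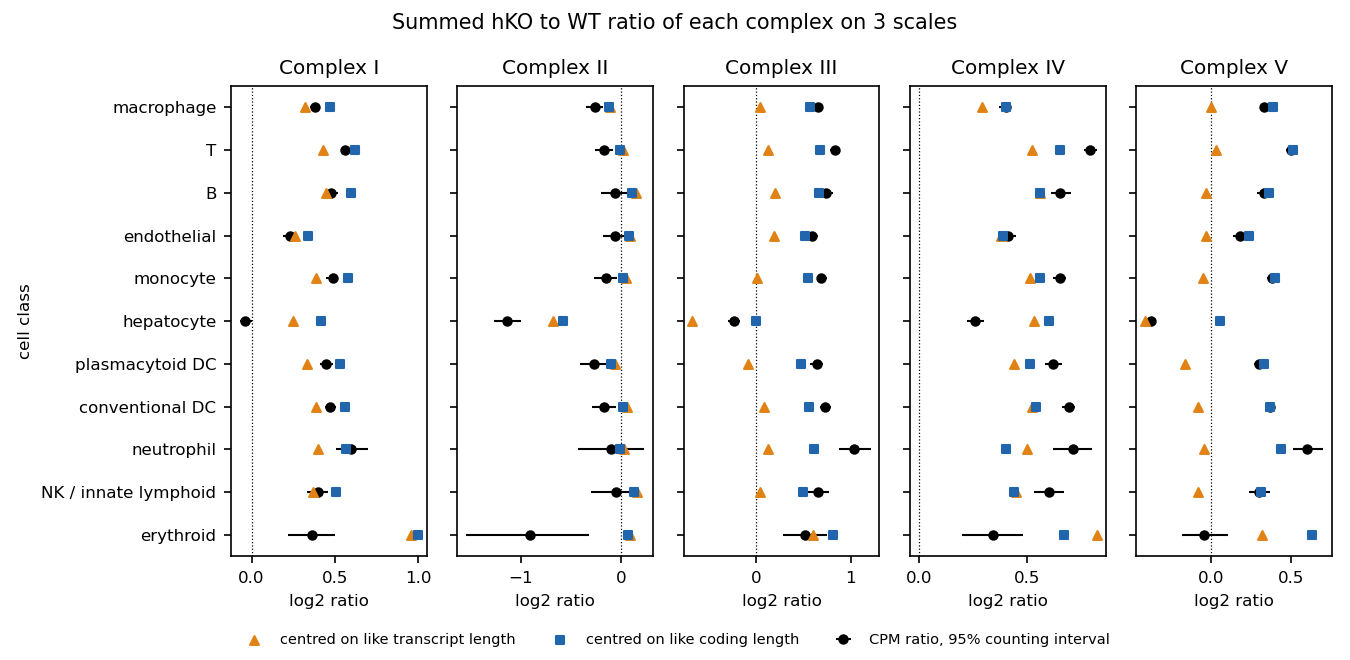
Summed log2 ratio of hKO over WT for each complex and class on the CPM scale (black, 95% counting interval) and centred on other genes of like transcript length (orange triangles) or like coding length (blue squares). Complexes I and IV lie above 0 on all 3 scales outside hepatocyte-like cells, whereas complexes III and V move to near 0 on the transcript-length scale except in hepatocyte-like and erythroid-like cells. Class names on the axis leave out -like.

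Some members went against their length. Atp5g2, a c-ring gene with a principal transcript of 441 nucleotides, had a median log2 ratio over classes of 0.06, and -0.90 when centred on transcript length. Atp5h (486 nucleotides) had 0.36 and, centred, -0.47. On the other side Cox7b, Ndufa13, Ndufa5, Ndufb4 and Atp5j2 had longer transcripts and high ratios: Ndufa13, at 1251 nucleotides, had a median of 1.00 and a centred value of 1.28, and Ndufa5 1.05 and 1.32. Ndufv3, at 1582 nucleotides, had 0.84 and 0.91.

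Other measures moved with the groups, and their part in the ratios was not tested beyond the values given here. Mitochondrial UMIs were more frequent in hKO than in WT in all 11 classes, for example 12.4% in hKO and 7.75% in WT B-like cells, against 8.34% in hKO and 6.51% in WT among T-like cells. The summed share of 12 abundant hepatocyte genes was higher in hKO in 10 classes and lower in macrophage-like cells, and ran outside hepatocyte-like cells from 0.590% to 2.25% in hKO and from 0.168% to 2.76% in WT, with no gene of that list at 0 in a compared class. Without Apoe, which macrophages also express, the share was higher in hKO in all 11 classes, at 0.408% to 1.27% in hKO and 0.0936% to 0.325% in WT outside hepatocyte-like cells, and in macrophage-like cells at 0.646% in hKO and 0.190% in WT. After a hepatocyte RNA profile was subtracted from the other classes, the summed ratio of all members was 0.26 to 0.76 in 9 classes; erythroid-like cells were left out, because the profile amounted to 101% of their hKO member UMIs. With cells over 10% mitochondrial UMIs removed it was 0.14 to 0.74 in the 10 classes outside hepatocyte-like cells. Hemoglobin UMIs went the other way: outside erythroid-like cells they made up 0.0632% to 0.546% in hKO and 0.359% to 3.41% in WT. Median depth per cell was lower in hKO than in WT in 9 of the 11 classes.

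In hepatocyte-like cells the ratios rested on how the class was drawn. Cluster 11, with 813 hKO cells, had 17699 CPM of members and 17.1% mitochondrial UMIs in hKO. Cluster 20, with 326 WT cells, had 32501 CPM and 7.67% in WT. Cluster 22, the one hepatocyte-like cluster with at least 20 cells in each library, had 39768 CPM in 287 hKO cells and 32227 CPM in 21 WT cells. With only that cluster kept, a choice made after the data were seen, the summed ratio of all members was 0.30 and that of complex II -0.77. At a Leiden resolution of 2.0, where 417 of the hKO cells of cluster 11 lost their name and 118 WT cells of cluster 24, a cluster with 15695 CPM of members in WT, joined the class, it was 0.66, and complex II stood at -0.23. The parts of these 2 changes were not tested. Complex II was below 0 in hepatocyte-like cells under each alternative tried.

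Levels of the members also varied between cell types in a way that both libraries shared. The hepatocyte-like class had the highest CPM of 75 members in hKO and of 82 in WT, 72 of them in both. Erythroid-like cells had the lowest sum, 3954 CPM in hKO and 3366 CPM in WT. Hemoglobin took 69.8% of hKO and 66.0% of WT UMIs in that class, which lowers the CPM of every other gene. The limit on hepatocyte RNA given above applies to this sum too. Cox6a2 stood furthest above its median class, by 6.19 on a scale of log2(CPM + 5) averaged over the libraries. The next were Uqcrq (2.78), Ndufab1 (2.31), Uqcr11 (2.31), Ndufa4 (2.26), Ndufb9 (2.12), Ndufa6 (2.11), Atp5g1 (2.04), Uqcr10 (2.02) and Ndufa8 (2.00), all highest in hepatocyte-like cells. Uqcrq had 801 CPM in hKO and 1059 CPM in WT hepatocyte-like cells, against median classes of 191 CPM in hKO and 87.3 CPM in WT. Most other members were less uneven.

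In T-like cells the genes around the respiratory chain were called higher at shares closer to that of all genes (8.51% higher, 10.1% lower) than the members were, a difference that was not tested. Of 41 further assembly factors, 38 could be judged in T-like cells, and 4 were called higher and 2 lower, with a median log2 ratio of -0.11. Those higher were Uqcc2, an assembly factor of complex III (87.2 CPM in hKO, 35.7 CPM in WT, 1.29), Pet100 (62.1 CPM in hKO, 25.9 CPM in WT, 1.26), Cox20 (1.02) and Higd1a (0.74). Among 78 mitochondrial ribosomal protein genes 6 were called higher and 4 lower in T-like cells (median -0.10), and in hepatocyte-like cells 0 of 77 higher and 48 lower (median -0.76), where 23.6% of all genes were higher and 32.2% lower. The 17 citric acid cycle genes had 0 calls in T-like cells (median -0.16) and 12 called lower in hepatocyte-like cells (median -0.90, all genes 32.2% lower). There Suclg1, a subunit of succinyl-CoA ligase, had 196 CPM in hKO and 676 CPM in WT (-1.78).

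Of 11 carrier and electron shuttle genes 5 were called lower and 1 higher in hepatocyte-like cells, counts near the background there for the lower calls (all genes 32.2% lower, 23.6% higher). Etfa and Etfb, the electron transfer flavoprotein that feeds electrons from fatty acid oxidation, had 142 and 610.1 CPM in hKO against 757 and 2175 CPM in WT, log2 ratios of -2.41 and -1.83. Slc25a4, an ADP/ATP carrier, had 148 CPM in hKO and 15.4 CPM in WT (3.27), while its relative Slc25a5 had 408 CPM in hKO and 828 CPM in WT (-1.02). Cycs, cytochrome c, was called higher in T-like cells, at 104 CPM in hKO and 60.8 CPM in WT (0.77). Of 12 regulators of mitochondrial biogenesis, among them Nrf1, Gabpa and Tfam, 0 were called higher in any of the 11 classes, against 8.63% of all pairs of gene and class. Lower calls numbered 1 in hepatocyte-like (all genes 32.2% lower) and 2 in erythroid-like cells (all genes 59.1% lower). Only 2 of the 12 could be judged in erythroid-like and 3 in neutrophil-like cells.

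The 13 mt- genes, which encode the remaining subunits, had medians between 0.39 and 1.03 and none called lower. In T-like cells the 3 called higher were mt-Nd3 (738 CPM in hKO, 248 CPM in WT, 1.57), mt-Nd4l (1308 CPM in hKO, 477 CPM in WT, 1.46) and mt-Atp8 (198 CPM in hKO, 101 CPM in WT, 0.97). These encode small subunits of complexes I and V. Among all genes of T-like cells 8.51% were called higher. Hepatocyte-like cells had 11 of the 13 mt- genes called higher (median 0.88), against 23.6% of all genes. The nuclear members summed to slightly less in hKO there, but the sign of that ratio depended on how the class was drawn. Cluster 11, which held most of its hKO cells, had 17.1% mitochondrial UMIs, and cluster 20, which held most of its WT cells, 7.67%.

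Promoter sequence was compared for the 73 members with an entry in the RefSeq table, searching 250 bases before the start on both strands and counting a gene once however many matches it held. The NRF1 core GCGCATGC was found in 9 members (12.3%) and 2.56% of all 27025 genes. The ETS core CCGGAAG was found in 14 members (19.2%) and 7.83% of all genes, and the YY1 core AAGATGGC in 1 member (1.37%) and 1.83% of all genes. NRF1 and the ETS factor GABP are known regulators of respiratory chain genes. Among the 32 members called higher in 6 or more classes, 11 (34.4%) held any of the 3 cores, and among the 41 others 10 (24.4%), so that motif-bearing promoters occurred in members of either kind.

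Outside the compared classes members were again higher in hKO, with cluster 24 nearly level. Unnamed cluster 15, with T and macrophage markers, had 14405 CPM of members in hKO and 9994 CPM in WT, cluster 30 had 16781 CPM in hKO and 10175 CPM in WT, and cluster 24 had 15859 CPM in hKO and 15695 CPM in WT. Barcodes over the mitochondrial limit had 12159.8 CPM in hKO and 8341 CPM in WT. Without mt- genes in their totals these were 22095 CPM in hKO and 15147 CPM in WT. Barcodes over the limit were not sorted into classes here, so hKO and WT may differ in their mix of cell types. The part of that mix in these values was not tested.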

How the data were processed

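Single-cell RNA libraries of 1 hKO and 1 WT tumor pool were analysed. The deposited matrices hold raw UMI counts per gene and barcode made with Cell Ranger 7.1.0, per the file headers; the submitters' processing notes name Cell Ranger, R 3.0, Seurat 3 and build mm9. With 1 library per group no test was made.

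Cells were barcodes that reached 200 genes and 500 UMIs and whose mitochondrial share did not exceed 25%. Scrublet removed 4.00% of WT cells; in hKO its threshold called 0.0175%, so the 9.16% (1049 cells) with the top scores were removed. Scanpy 1.11.5 and leidenalg 0.10.2 clustered both libraries together (2000 variable genes without the members, 30 principal components, 15 neighbors, resolution 1.0, seed 1). Clusters were named from markers of 16 cell types, and the rebuilt names may differ from the study's. Within each class the UMIs of a library's cells were added up and scaled to 1000000 (CPM). Ratios are hKO over WT with exact conditional binomial 95% intervals and levels have exact Poisson intervals (SciPy 1.17.1, NumPy 2.4.6, pandas 2.3.3, Python 3.11.15, matplotlib 3.10.9). Calling was tested on simulated counts with known fold changes and counting error only, a check that cannot cover other differences between the libraries. The 3′ counts are not compared between genes. Near-identical copies and overlapping genes could share reads.

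The text names, per class, up to 3 members with the largest and up to 3 with the smallest called ratio (5 each for T-like, macrophage-like and hepatocyte-like cells), members called in 6 or more classes, isoforms, the 10 most uneven across classes, those with the most UMIs and those near the UMI minimum. Cox5a, Cox7a2l, Atp5b, Ndufaf4 and the members said to go against their length were chosen after their values were seen. The members and lists were chosen with earlier results of these data known. Transcript and coding lengths come from GENCODE M21 and promoters from RefSeq (GRCm38.p6). Ratios within single clusters were added after the data were seen. Alternatives changed scaling, cell limits, doublets, resolution, weighting of cells, variable genes, hepatocyte RNA and the call's fold. The mast or basophil-like and plasma-like cells had under 100 cells in a library and were not compared. Values of 1 member and of 1 gene of another list are not reported here.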

Additional observations from a re-analysis of the deposited data

Results flagged for a closer look

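In hepatocyte-like cells the summed ratio of complex III was -0.23, that of complex V -0.37 and that of all members -0.10, each opposite in direction to the ratios of the other classes, apart from erythroid-like cells for complex V. The difference between classes was not tested, since there is 1 library per group. The hepatocyte-like cells of hKO and WT came mostly from different clusters, with 13.7% mitochondrial UMIs in hKO and 7.81% in WT, and the part of either in these ratios was not tested.

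Barcodes left out for more than 25% mitochondrial UMIs also carried respiratory chain transcripts, at 12159.8 CPM in 6613 hKO barcodes and 8341 CPM in 2212 WT barcodes. They were not sorted into classes, and the part of their cell mix in this difference was not tested.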

How the results depend on the processing

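Of 2625 values recomputed under an alternative, 2055 kept their direction and moved little, 538 moved and 32 reversed; the cause was not tested. The centring on length, the limit to clusters with 20 cells in each library, the 2000 UMI minimum, the sum without Cox17 and the subtraction of hepatocyte RNA were chosen after seeing the data. The planned subtraction of free RNA was not run, because hemoglobin made up 58.8% of its hKO profile and 80.8% of its WT profile. No paired analysis was possible because there is 1 library per group. At minimums of 20 and 200 UMIs the list held 91 and 88 members. Depth limits rare isoforms most: Cox6b2 rested on 1 WT UMI in hepatocyte-like cells.

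Complex I was lower in 1 class under the 50% mitochondrial limit, stricter cell minimums and the mean over cells. Complex II was lower in 3 classes without abundant gene kinds in the total and under median scaling, and in 2 when centred on transcript or on coding length, with 1 class higher on transcript length. Complex III was lower in 0 classes under median scaling, the 10% mitochondrial limit, resolution 2.0, clusters with 20 cells in each library and coding length, and on transcript length lower in 2 and higher in 5. Complex V was lower in 0 classes at resolution 2.0, in clusters with 20 cells in each library and on coding length, and on transcript length lower in 5 and higher in 2. All members were lower in 0 classes under median scaling, the 10% limit, resolution 2.0, clusters with 20 cells and coding length. At a 2-fold limit 231 pairs were called higher and 26 lower.

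On transcript length the medians of Ndufa11 and Uqcrq turned to -0.04. The complex V ratio turned to -0.00 in macrophage-like, -0.03 in B-like and endothelial-like, -0.05 in monocyte-like, -0.16 in plasmacytoid dendritic-like, -0.04 in neutrophil-like, and -0.08 in conventional dendritic-like and NK or innate lymphoid-like cells. Complex III turned to -0.08 in plasmacytoid dendritic-like cells. Complex II turned to 0.02 in T-like, 0.05 in monocyte-like, 0.06 in conventional dendritic-like and 0.09 in erythroid-like cells on transcript length, to 0.02 in monocyte-like and conventional dendritic-like and 0.07 in erythroid-like cells on coding length, and to 0.12 in erythroid-like cells under median scaling.

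In hepatocyte-like cells complex III turned to 0.03 (10% limit), 0.78 (resolution 2.0) and 0.49 (clusters with 20 cells), complex IV to -0.01 (mean over cells), and complex V to 0.58 (resolution 2.0), 0.13 (clusters with 20 cells) and 0.06 (coding length). All members turned to 0.08 (median scaling), 0.13 (10% limit), 0.66 (resolution 2.0), and 0.30 (clusters with 20 cells and coding length), and Cox6b2 to -1.45 (resolution 2.0).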
